A study of Bos taurus with 15 samples.

Results

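Immunoglobulin and joining chain transcripts were measured in endometrium, the lining of the uterus, of 15 beef heifers (Bos taurus) whose pregnancies were at day 14. The genes are 10 entries of the deposited table, out of 32671, chosen by symbol. Their symbol or description points to an immunoglobulin heavy chain, lambda chain, IgM or joining chain. They are not all such entries, and those outside the 10 are given further below. All 10 were among the 19962 genes with enough counts to be tested. The 10 were selected on their read counts in these same libraries, after their values in Sub-fertile and Infertile against High-fertile heifers had been seen. The class differences of these 10 genes are therefore given as a description and carry no test. By the labels, 5 heifers were High-fertile, 5 Sub-fertile and 5 Infertile. All 15 had been synchronised with prostaglandin, GnRH, progesterone and estradiol, had received an in vivo-produced embryo on day 7, and had their uterus flushed before the biopsy was cut with forceps. The labels give no breed, age or sequencing batch, and the sources used here do not say how the classes were assigned. With 1 library per heifer, errors are the spread between animals.

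An antibody is built from paired heavy and light chains, each with a variable part that binds antigen and a constant part that sets its class. The light chains of cattle are mostly of the lambda type. Plasma cells, the end stage of the B cell lineage, secrete these chains in large amounts. The joining chain links units of IgM into pentamers and of IgA into dimers, and lets the polymeric immunoglobulin receptor of epithelial cells carry them into a mucosal lumen such as that of the uterus.

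Total counts were 38017136 to 62858724 per library. Clustering on the counts of pseudogenes and ribosomal RNA, cut into 3 groups, gave sets of 8, 5 and 2 libraries. The number of groups was fixed beforehand and not found from the data. The labels do not give this split, and what it stands for was not tested. The 8-library set held High-fertile replicates 2 to 5, replicates 3 and 4 of the Sub-fertile class and 1 and 4 of the Infertile class. The 5-library set held the other Sub-fertile libraries (replicates 1, 2, 5) with replicates 3 and 5 of the Infertile class, and the remaining set held High-fertile replicate 1 and Infertile replicate 2. The summed levels of epithelial markers (EPCAM, KRT8, CDH1, FOXA2 and others, 10 in all) were 620 to 1687 CPM and those of 10 stromal markers 10015 to 39100 CPM over the 15 libraries, with none of the 20 at 0 in a whole class. The labelled tissue therefore had both of its defining cell types in each class.

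The 10 genes held little of the Sub-fertile libraries and a wide range of the other libraries. They took 0.0712% ± 0.0377 of the counts of a High-fertile library (SD, n = 5), 0.00442% ± 0.00116 of a Sub-fertile one and 0.0372% ± 0.0316 of an Infertile one. In CPM, counts per library total scaled by a TMM factor, their sum in High-fertile replicates 1 to 5 was 119, 707, 682, 954 and 1109.5. In Sub-fertile replicates 1 to 5 it was 55.4, 54.9, 31.2, 34.0 and 44.1 CPM. In Infertile replicates 1 to 5 it was 129, 566, 777, 306 and 48.5 CPM. Sub-fertile heifers lay in a narrow band below all others but 1, since Infertile replicate 5 fell within that band. The Infertile class was spread out, from the Sub-fertile band to the upper High-fertile values. High-fertile replicate 1 was the lowest of its class and lay beside Infertile replicate 1. In a bulk biopsy, fewer plasma cells and less antibody RNA per plasma cell cannot be told apart.

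**Figure D1:**
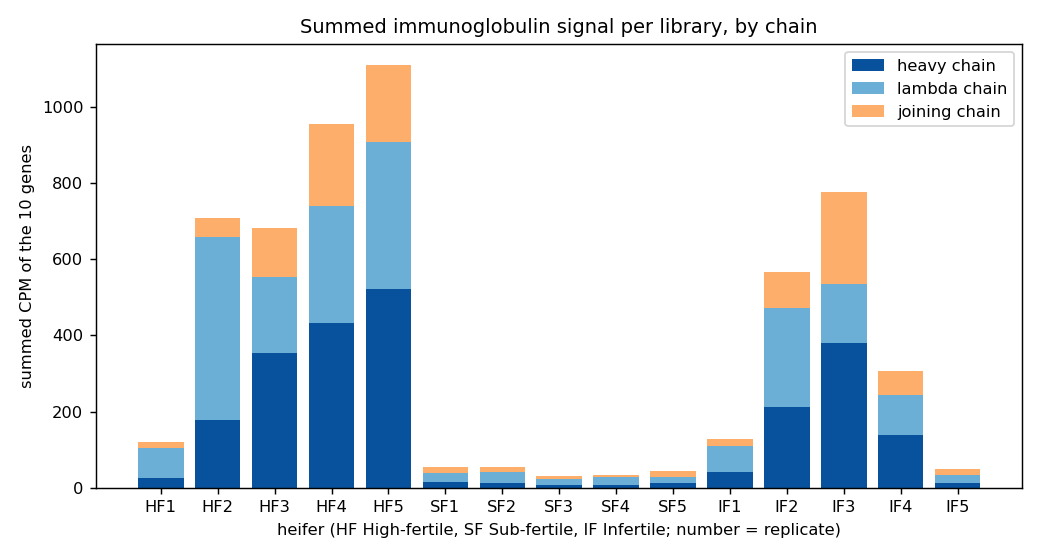
Summed CPM of the 10 genes in each of the 15 libraries, stacked by heavy chain, lambda chain and joining chain. The 5 Sub-fertile bars (31.2 to 55.4 CPM) and Infertile replicate 5 (48.5 CPM) are barely visible beside 4 of the High-fertile bars (682 to 1109.5 CPM).

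Among the heavy chain genes, LOC524810, described as IgM, had the lowest Sub-fertile values relative to High-fertile. It was at 18.7, 64.0, 279.8, 283 and 419 CPM in High-fertile replicates 1, 2, 3, 4 and 5. It was at 4.96, 3.52, 2.96, 2.90 and 7.74 CPM in Sub-fertile and at 26.9, 185, 293, 95.2 and 6.23 CPM in Infertile replicates 1 to 5. The High-fertile and Sub-fertile ranges were apart, while the Infertile libraries overlapped both. The log2 fold change was -5.59 ± 1.02 (SE, edgeR) for Sub-fertile against High-fertile, -0.81 ± 0.838 for Infertile against High-fertile and 4.78 ± 0.981 for Infertile against Sub-fertile. Without Infertile replicate 3 the latter pair were -1.44 and 4.15.

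LOC444875, an entry for a heavy chain variable region, followed the same order of classes. It was at 23.5 ± 12.8 CPM in High-fertile, 2.19 ± 0.852 CPM in Sub-fertile and 11.6 ± 8.78 CPM in Infertile heifers (SD, n = 5 each). No Sub-fertile library reached the lowest High-fertile value of 4.03 CPM. LOC100300806, described as similar to the heavy chain of an antibody named Mem5, had the tightest Sub-fertile class of the 10 genes. It was at 3.17, 25.8, 17.2, 23.1 and 21.0 CPM in High-fertile and at 1.67, 1.23, 1.27, 1.23 and 1.21 CPM in Sub-fertile replicates 1 to 5. In Infertile replicates 1 to 5 it was at 3.18, 6.04, 15.6, 8.41 and 1.38 CPM. The log2 fold change for Sub-fertile against High-fertile was -3.77 ± 0.615, with no overlap.

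LOC104968484 carries the same description as LOC100300806, so reads may have been shared between the pair. It was at 35.2 to 79.2 CPM in High-fertile replicates 2 to 5 but at 0.989 CPM in High-fertile replicate 1, under every other library of the study. The 5 Sub-fertile libraries were at 1.57 to 5.98 CPM, so the classes overlapped through that library alone. Its count was 0.313 times that of LOC100300806 in High-fertile replicate 1 and 1.23 to 4.08 times in the other 14 libraries. LOC100301305, another variable region entry, was also lowest in High-fertile replicate 1, at 4 counts or 0.0989 CPM, against 3.27 to 15.7 CPM in the other High-fertile heifers. It was at 0.137 to 0.418 CPM in Sub-fertile libraries, which rested on 6 to 16 counts each. In Infertile replicates 2 and 5 it had 7 counts each, and in Infertile replicate 3 it had 275.

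**Figure D2:**
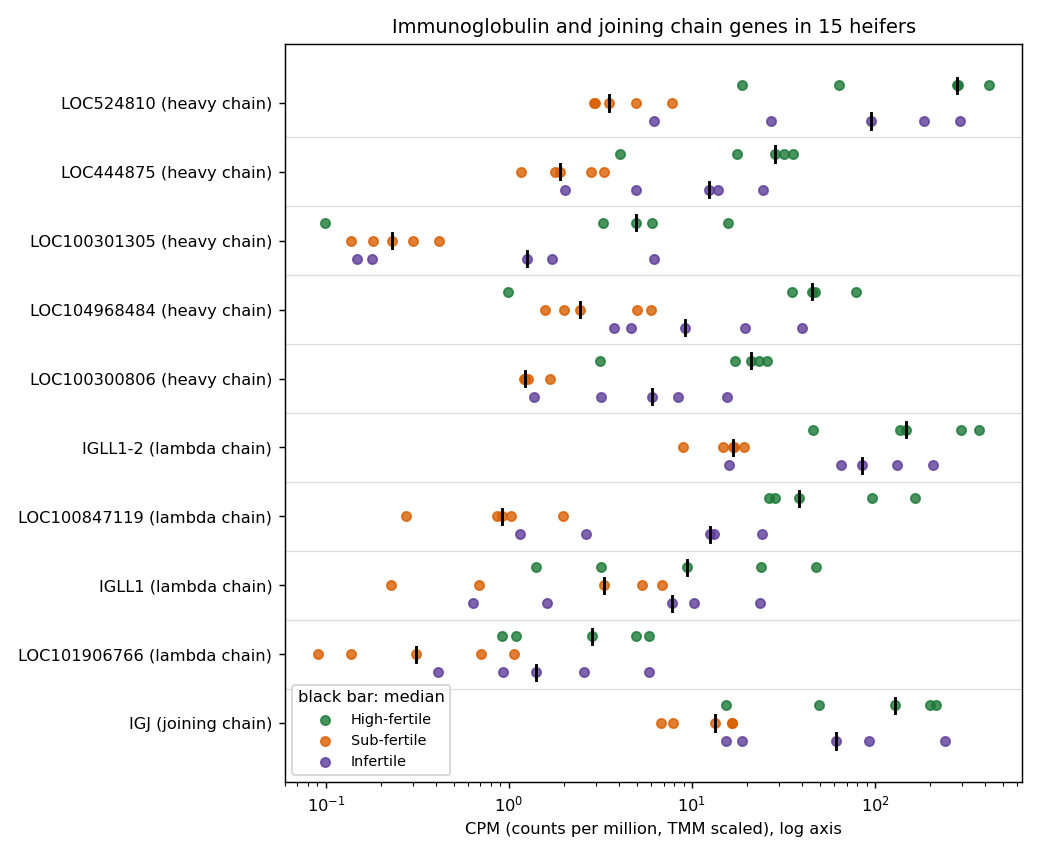
CPM of each of the 10 genes (log axis) in the 15 heifers, 1 point per heifer, coloured by class, with black bars at the class medians. Sub-fertile points lie furthest to the left for most genes, and 5 genes have no overlap between Sub-fertile and High-fertile points.

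Among the lambda chain genes, IGLL1-2 was the most abundant. Its symbol marks it as a second entry for immunoglobulin lambda-like polypeptide 1, and the table gives it no description. It was at 45.9, 370.2, 148, 137 and 296 CPM in High-fertile and at 17.0, 19.3, 14.8, 16.7 and 8.95 CPM in Sub-fertile replicates 1 to 5. In Infertile replicates 1 to 5 it was at 65.1, 207, 131, 84.4 and 15.9 CPM. Infertile replicate 5 lay inside the Sub-fertile range, and the other 4 Infertile heifers lay above it.

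LOC100847119, described as a lambda constant region, had the largest difference of the 10 genes. It was at 28.4, 96.0, 26.3, 164 and 38.6 CPM in High-fertile and at 1.98, 0.857, 0.273, 0.918 and 1.02 CPM in Sub-fertile replicates 1 to 5. In Infertile replicates 1 to 5 it was at 1.15, 24.2, 13.1, 12.6 and 2.63 CPM. It was the only one of the 10 whose Infertile libraries all lay below all High-fertile libraries, with a log2 fold change of -2.72 ± 0.757 for Infertile against High-fertile. High-fertile replicate 1, low for most of the genes, was within the range of its class here.

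The other lambda entries had overlapping High-fertile and Sub-fertile values. IGLL1, the entry that carries the name of the surrogate light chain of precursor B cells in human and mouse, ranged from 1.41 to 47.7 CPM in High-fertile, from 0.228 to 6.88 CPM in Sub-fertile and from 0.639 to 23.6 CPM in Infertile heifers. Its log2 fold change for Sub-fertile against High-fertile was the smallest of the 10, at -2.38 ± 1.09. It was -1.53 without High-fertile replicate 5 and -5.48 within the 8-library set, where 7 of the other members had smaller differences. Its classes overlapped with or without High-fertile replicate 1. LOC101906766, a lambda variable region entry and the least abundant lambda gene, was at 0.915 to 5.82 CPM in High-fertile, 0.0911 to 1.07 CPM in Sub-fertile and 0.409 to 5.83 CPM in Infertile heifers. Sub-fertile replicate 5 held only 4 counts of it.

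IGJ, the joining chain gene (now named JCHAIN), was the second most abundant of the 10 per gene length in Sub-fertile heifers. It was at 15.3, 49.6, 128, 215 and 201 CPM in High-fertile and at 16.6, 13.4, 7.87, 6.77 and 16.5 CPM in Sub-fertile replicates 1 to 5. In Infertile replicates 1 to 5 it was at 18.9, 93.1, 241, 61.3 and 15.4 CPM. High-fertile replicate 1 fell below Sub-fertile replicates 1 and 5, and this library alone made the classes overlap. The log2 fold change for Sub-fertile against High-fertile was -3.32 ± 0.794. It was 2.81 ± 0.777 for Infertile against Sub-fertile and 1.95 without Infertile replicate 3.

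Across the 10 genes, all 10 had a log2 fold change below 0 for Sub-fertile against High-fertile, where 49% of all genes tested did. The median was -3.66 (range -6.13 to -2.38), beside 0.01 for all genes. Of the 10 genes, 5 had no overlap between the classes (LOC524810, LOC444875, LOC100300806, IGLL1-2 and LOC100847119), beside 2.81% of all genes with every Sub-fertile library below every High-fertile library. Without High-fertile replicate 1 this count was 9 of 10, beside 3.6% of all genes. In the edgeR quasi-likelihood test 0 of the 10 passed an adjusted p of 0.05, beside 0% of all genes, and 10 of 10 had an unadjusted p under 0.05, beside 13.7%. DESeq2 and the edgeR likelihood ratio test each called 8 of the 10, beside 19 and 13 of all genes. Limma-voom called 0 of the 10, beside 0 of all genes. These counts come from the contrast that chose the genes, and nothing is read from them.

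For Infertile against High-fertile, all 10 genes were lower, where 46.5% of all genes were. The median was -1.01 (range -2.72 to -0.49), beside 0.04 for all genes, and 1 of the 10 had no overlap, beside 1.1% of all genes. For Infertile against Sub-fertile, all 10 were higher, where 54.7% of all genes were. The median was 2.56 (range 1.42 to 4.78), beside 0.03 for all genes. No gene of the 10 had every Infertile library above every Sub-fertile library, which 0.12% of all genes did. With Infertile replicate 5, the library that overlapped most often, left out after the values were seen, 5 of the 10 did, beside 0.311% of all genes. In these comparisons too 0 of the 10 genes passed an adjusted p of 0.05 in the edgeR test, beside 0% of all genes. At an unadjusted p under 0.05 the counts were 2 of 10 and 9 of 10, beside 11% and 2.63% of all genes. DESeq2 called 1 and 4 of the 10, beside 33 and 11 of all genes. The edgeR likelihood ratio test called 0 and 3 of the 10, beside 8 and 8 of all genes. Limma-voom called 0 and 0 of the 10, beside 1 and 1 of all genes. Both comparisons share libraries with the one that chose the genes, so they are not independent of that choice.

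**Figure D3:**
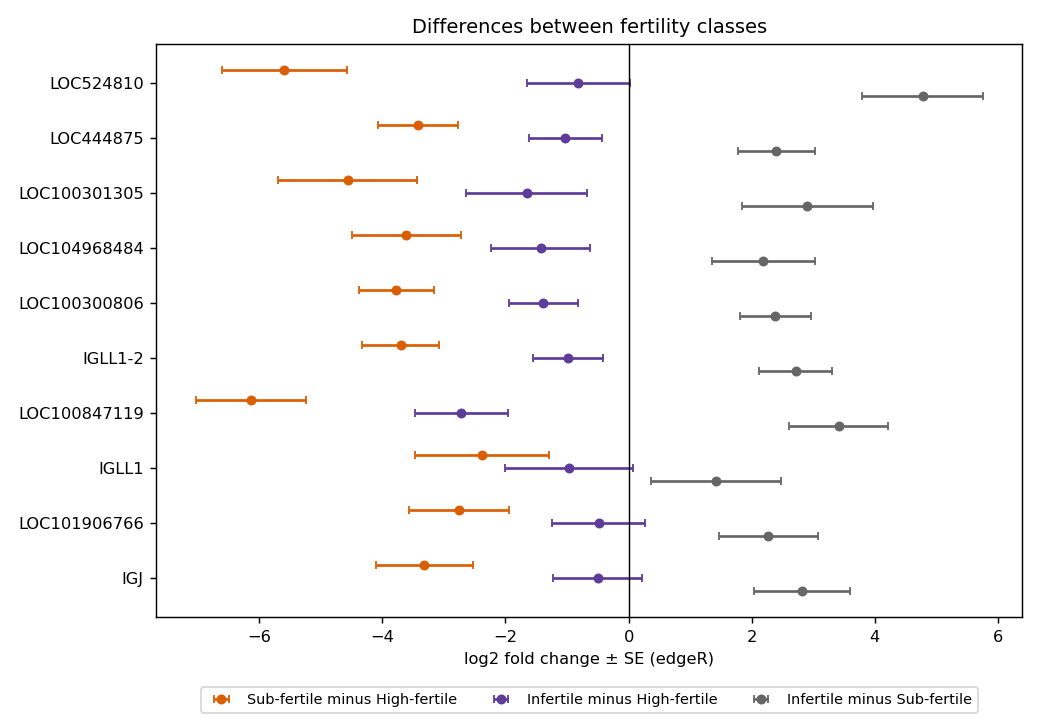
Log2 fold change ± SE (edgeR) of each of the 10 genes for the 3 pairs of classes. All 10 lie below 0 for Sub-fertile minus High-fertile (-6.13 to -2.38) and Infertile minus High-fertile (-2.72 to -0.49), and above 0 for Infertile minus Sub-fertile (1.42 to 4.78).

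The differences were present in the 8-library set, the only set with both High-fertile and Sub-fertile libraries. Its libraries are among those that chose the genes, so its values are a description. The part of the split in the class differences was not tested. In the 8-library set the summed level was 682 to 1109.5 CPM in 4 High-fertile, 31.2 and 34.0 CPM in 2 Sub-fertile and 129 and 306 CPM in 2 Infertile heifers. There each of the 10 genes had both Sub-fertile libraries below all 4 High-fertile ones, beside 11.3% of all genes, and below both Infertile ones, beside 13.8%. In the 5-library set, which has no High-fertile library, the sum was 44.1 to 55.4 CPM in 3 Sub-fertile heifers and 777 and 48.5 CPM in Infertile replicates 3 and 5. The remaining set paired High-fertile replicate 1 at 119 CPM with Infertile replicate 2 at 566 CPM, the reverse of the order of class means. The median log2 fold change of the 10 genes for Sub-fertile against High-fertile was -3.95 with the set as a covariate and -4.52 within the 8-library set.

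The makeup of the antibody transcripts differed between heifers as well as their amount. Per gene length, in the deposited FPKM, the mean order in High-fertile libraries ran from IGLL1-2 at 193 ± 127 FPKM and LOC524810 at 182 ± 143 FPKM down to LOC101906766 at 3.13 ± 2.23 FPKM (SD, n = 5). LOC104968484 at 101 ± 68.0 FPKM and IGJ at 100.01 ± 72.76 FPKM came next, then LOC100847119 at 66.1 ± 55.3 FPKM, and each of these differed from the next by less than the larger of the pair of SDs. In Sub-fertile libraries IGLL1-2 was still first, at 14.97 ± 3.902 FPKM, and IGJ followed at 10.1 ± 3.85 FPKM. LOC524810 stood at 3.79 ± 1.71 FPKM there, below LOC104968484 at 8.38 ± 4.88 FPKM, IGLL1 at 8.01 ± 7.08 FPKM and LOC444875 at 5.31 ± 2.11 FPKM.

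The joining chain outnumbered IgM in each Sub-fertile library. There were 3.34, 3.81, 2.66, 2.33 and 2.13 counts of IGJ for each count of LOC524810 in Sub-fertile replicates 1 to 5. In High-fertile replicates 1 to 5 the ratio was 0.821, 0.775, 0.458, 0.759 and 0.479. In Infertile replicates 1 to 5 it was 0.700, 0.504, 0.823, 0.644 and 2.47. The 6 libraries with a ratio above 1 were those with the 6 lowest sums of antibody transcripts, Infertile replicate 5 among them. High-fertile replicate 1, with a low sum for its class, kept a ratio under 1.

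**Figure D4:**
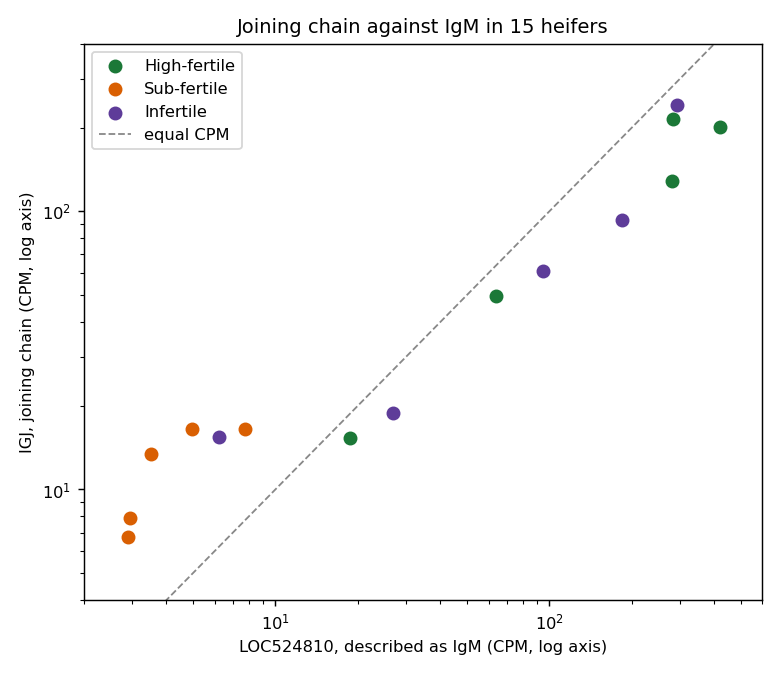
CPM of IGJ against CPM of LOC524810, described as IgM, in 15 heifers (both axes log), with a dashed line of equal CPM. The 5 Sub-fertile heifers and Infertile replicate 5 lie above the line, with ratios from 2.13 to 3.81, and the other 9 lie below it, with ratios from 0.458 to 0.823.

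The balance of lambda to heavy chain entries among the chosen genes varied within classes. None of these heavy chain entries is described as an IgG or IgA constant region. The membrane-bound IgG entry given further below was not counted. The ratio thus covers the chosen entries and not all light and heavy chains. Lambda counts per heavy chain count were 2.84 and 2.72 in High-fertile replicates 1 and 2, but 0.568, 0.706 and 0.746 in replicates 3, 4 and 5. They were 1.25 to 2.17 in Sub-fertile and 0.415 to 1.69 in Infertile heifers, so the classes overlapped. The heavy chain entries took 24.3% to 28.6% of the counts of the chosen genes in Sub-fertile heifers. They took 22.7% to 51.8% in High-fertile and 28.0% to 48.8% in Infertile heifers.

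The choice between lambda entries varied further. LOC100847119 reached 1.20 counts for each count of IGLL1-2 in High-fertile replicate 4, 0.617 in replicate 1 and 0.130 to 0.259 in the other 3. The ratio was 0.0185 to 0.117 in Sub-fertile and 0.0177 to 0.166 in Infertile heifers. IGLL1 ran from 0.0154 to 0.593 counts per count of IGLL1-2 within the Sub-fertile class. Among the heavy chain entries, LOC444875 stood at 1.02 to 1.38 counts for each count of LOC100300806 in High-fertile, 0.962 to 2.68 in Sub-fertile and 1.46 to 2.05 in Infertile heifers. Reads of near-identical antibody genes can be split between entries, and the sources used here do not give the rule for such reads, so ratios between entries of one chain are uncertain.

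Most of the genes were high and low in the same heifers, also within classes. Each gene was set against the mean standardised log2 CPM of the other 9, over 15 libraries. With class means subtracted, Pearson's r was 0.950 for LOC444875, 0.937 for LOC100300806, 0.885 for LOC104968484, 0.873 for IGJ and 0.860 for LOC524810. It was lowest for LOC100847119 (0.609), LOC101906766 (0.632) and LOC100301305 (0.684). The closest pair was LOC444875 with LOC100300806 (r = 0.957), followed by LOC524810 with IGJ (r = 0.950). The points share libraries and their scaling factors, the genes were chosen together, and these values are descriptions.

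The other immunoglobulin entries of the table were few and near 0. There were 4 of them outside the 10, and none had enough counts to be tested. The kappa variable entries LOC104968717 and LOC100297248 held 3 and 4 counts over the 5 High-fertile, 2 and 2 over the Infertile and 0 and 0 over the Sub-fertile libraries. LOC100297018, described as similar to an omega chain, held 1 count in all. LOC101906441, described as the membrane-bound constant region of IgG2a, held 48 counts in High-fertile replicate 1, where it was at 1.19 CPM. It held 15, 5, 0 and 4 counts in High-fertile replicates 2 to 5, 4 counts in Infertile replicate 2 and 0 in the other 4 Infertile and all 5 Sub-fertile libraries. A count of 0 allows up to 3 counts, or 0.0492 to 0.0783 CPM in the Sub-fertile libraries, by counting error alone. The library with the most membrane IgG2a was thus the High-fertile library with the least IgM and IGLL1-2.

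Genes of the B cell lineage differed in which heifer held them. MS4A1 encodes the B cell antigen CD20. It was at 20.9 CPM in High-fertile replicate 1 and at 0.517 to 0.643 CPM in the other 4 High-fertile heifers. It was at 0.341 to 0.463 CPM in Sub-fertile and 0.156 to 1.20 CPM in Infertile heifers. CD79A and CD79B, which signal for surface antibody, were also highest in that heifer, at 7.07 and 7.52 CPM against at most 0.858 and 0.476 CPM in the other High-fertile heifers. For CD79B the other 4 High-fertile heifers overlapped the Sub-fertile range.

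Of the 18 genes listed for B cell receptor and identity, 0 were past an adjusted p of 0.05 in any comparison in the edgeR quasi-likelihood test. For Sub-fertile against High-fertile 9 had an unadjusted p under 0.05, beside 13.7% of all genes, and the likelihood ratio test called CD79A. For 5 of the 18, MS4A1 and CD79A among them, every Sub-fertile library lay under all the High-fertile ones, beside 2.81% of all genes. Of the 18, 16 were lower there (median log2 fold change -0.82), and for Infertile against High-fertile also 16 of 18, with a median of -0.63. Their summed level was 134 to 199 CPM in High-fertile, 142 to 188 CPM in Sub-fertile and 94.2 to 206 CPM in Infertile libraries. The ranges of this sum overlapped, and none of the 18 was at 0 in a whole class. The difference of MS4A1 rested on 1 heifer. Its log2 fold change for Sub-fertile against High-fertile was -3.54, and -0.53 without High-fertile replicate 1. That of CD79A went from -3.24 to -1.69 and that of CD79B from -3.90 to -1.56, while that of IGLL1-2 went from -3.70 to -3.95.

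Among genes of the plasma cell programme, 3 scarce ones had lower means in Sub-fertile than in High-fertile heifers. MZB1, a chaperone of the endoplasmic reticulum that helps assemble IgM, was at 0.940, 3.21, 1.72, 1.97 and 2.85 CPM in High-fertile replicates 1 to 5. It was at 0.387 to 1.16 CPM in Sub-fertile and 0.409 to 2.11 CPM in Infertile heifers. The log2 fold change for Sub-fertile against High-fertile was -1.69 ± 0.477 (edgeR adjusted p = 0.360), with High-fertile replicate 1 the lowest of its class and inside the Sub-fertile range. POU2AF1, a coactivator of immunoglobulin promoters, was at 1.21 ± 0.897 CPM in High-fertile, 0.119 ± 0.0653 CPM in Sub-fertile and 0.429 ± 0.297 CPM in Infertile heifers (edgeR adjusted p = 0.320 for Sub-fertile against High-fertile). IRF4, a transcription factor of plasma cells and activated lymphocytes, was at 2.63 ± 0.352, 1.10 ± 0.368 and 1.73 ± 1.11 CPM. POU2AF1 and IRF4 were the 2 of 24 tested plasma cell genes with every Sub-fertile library below every High-fertile one, beside 2.81% of all genes. High-fertile replicate 1 held the most POU2AF1 and IRF4 among the High-fertile heifers.

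Other genes listed for that programme had nearly equal class means, whether abundant or scarce. Which cells of the bulk biopsy held their transcripts was not tested. XBP1, which drives the secretory pathway, was at 275 ± 79.4, 261 ± 41.2 and 263 ± 78.4 CPM in High-fertile, Sub-fertile and Infertile heifers. PRDM1, which ends B cell identity, was at 176 ± 35.4, 181 ± 79.7 and 153 ± 38.5 CPM. DERL3, of protein quality control, was at 21.7 ± 9.73, 20.9 ± 10.9 and 20.8 ± 10.95 CPM, and TNFRSF17, the survival receptor BCMA, at 1.02 ± 0.320, 0.894 ± 0.312 and 0.991 ± 0.263 CPM. Of 27 listed plasma cell genes 24 were tested and 0 passed an adjusted p of 0.05 in any comparison in the edgeR quasi-likelihood test. For Sub-fertile against High-fertile 5 had an unadjusted p under 0.05, beside 13.7% of all genes, and DESeq2 and the likelihood ratio test each called POU2AF1. Of the 24, 19 were lower there, the median being -0.15 on the log2 scale.

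**Figure D5:**
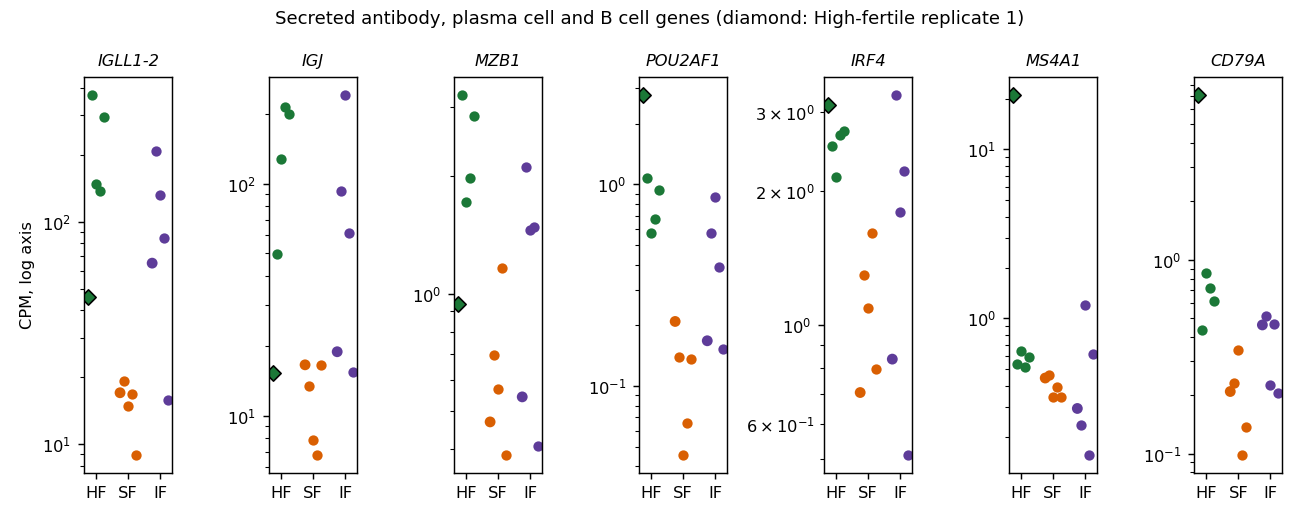
CPM (log axes, 1 panel per gene) in High-fertile (HF), Sub-fertile (SF) and Infertile (IF) heifers, 1 point per heifer, with a diamond for High-fertile replicate 1. That heifer is the lowest High-fertile point for IGLL1-2, IGJ and MZB1 and the highest for POU2AF1, IRF4, MS4A1 and CD79A.

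The antibody carrier of the epithelium had overlapping values in the 3 classes. PIGR, the polymeric immunoglobulin receptor, was at 20.4 ± 3.50 CPM in High-fertile, 14.9 ± 11.4 CPM in Sub-fertile and 51.7 ± 75.0 CPM in Infertile heifers. Sub-fertile replicate 4 held 33.9 CPM of PIGR, above every High-fertile heifer, and Infertile replicate 2 held 185 CPM. FCGRT, the receptor that moves IgG across cells and protects it from breakdown, was at 149.9 ± 22.1, 102 ± 33.1 and 112 ± 44.2 CPM, with overlapping ranges (log2 fold change -0.55 ± 0.2503 for Sub-fertile against High-fertile, edgeR adjusted p = 0.360). FCGR1A, a high-affinity IgG receptor of macrophages, had a log2 fold change of -0.60 ± 0.288 in that comparison. Of 10 tested transport and Fc receptor genes 0 passed an adjusted p of 0.05 in the edgeR test. For Sub-fertile against High-fertile 1 had an unadjusted p under 0.05, beside 13.7% of all genes. There 7 of the 10 were lower, with a median of -0.41 over the 10. FCAMR, a receptor for IgA and IgM, had no count in the High-fertile libraries.

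Genes that recruit or sustain plasma cells had small differences. Of 14 tested, 0 passed an adjusted p of 0.05 in the edgeR test. For Sub-fertile against High-fertile 2 had an unadjusted p under 0.05, beside 13.7% of all genes, and 11 were lower. The median of the 14 was -0.19 on the log2 scale. The pair with the smallest p were TGFB1, which promotes switching to IgA, at 12.6 ± 2.05 against 22.4 ± 5.35 CPM, and IL21R, a receptor for a B cell growth factor, at 0.744 ± 0.126 against 1.29 ± 0.297 CPM. Neither overlapped between Sub-fertile and High-fertile heifers. IL21 itself had no count in any library. RAG1, of antibody gene recombination, also had no count in any library. The other genes of recombination and switching are DNA repair genes of many cells. Of the 11 tested, 0 passed an adjusted p of 0.05 in the edgeR test. For Sub-fertile against High-fertile 2 had an unadjusted p under 0.05, beside 13.7% of all genes. There 10 of the 11 were higher, with DCLRE1C at 23.4 ± 2.27 against 18.8 ± 1.70 CPM.

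The markers of other cell types are given beside the antibody genes, and their part in the antibody differences was not tested. The 10 macrophage markers summed to 88.2 to 121 CPM in Sub-fertile, 119 to 251 CPM in High-fertile and 80.5 to 221 CPM in Infertile libraries, with 9 of 9 tested members lower for Sub-fertile against High-fertile (median log2 fold change -0.66) and MARCO at 0 in all High-fertile libraries. Smooth muscle had 10 of 10 lower (median -1.06), with sums of 723 to 6352 CPM in Sub-fertile against 1011 to 12622 CPM in High-fertile and 636 to 25709 CPM in Infertile libraries. Endothelium had 10 of 10 lower (median -0.53) and sums of 727 to 1149, 906 to 1677 and 717 to 1088 CPM in Sub-fertile, High-fertile and Infertile libraries. T and NK cell genes had 11 of 15 lower (median -0.22), with sums of 44.4 to 81.1, 67.6 to 83.0 and 54.8 to 81.2 CPM. Granulocyte and mast cell genes had 5 of 8 lower, with sums of 57.8 to 104, 51.9 to 121 and 58.7 to 233 CPM. Stroma had 9 of 10 lower (median -0.18) and epithelium 6 of 10 (median -0.08). Blood cell genes had 2 of 5 lower, and their sums were 2.90 to 5.61, 2.28 to 5.39 and 1.26 to 9.53 CPM, with SLC4A1 at 0 in all 15 libraries. Of the 154 tested genes in all 13 lists, 0 passed an adjusted p of 0.05 in the edgeR quasi-likelihood test in any comparison. For Sub-fertile against High-fertile 31 of the 154 had an unadjusted p under 0.05, beside 13.7% of all genes. There DESeq2 called 1, the likelihood ratio test 2 and limma-voom 0 of the 154, beside 19, 13 and 0 of all genes. For Infertile against High-fertile 22 had an unadjusted p under 0.05, beside 11% of all genes. For Infertile against Sub-fertile 8 did, beside 2.63%. Each of these tools called 0 of the 154 in both of these comparisons.

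The genes whose pattern lay closest to the antibody genes included several of the B cell lineage. Likeness was Pearson's r, over the 15 libraries, between a gene's log2 CPM and the mean standardised log2 CPM of the 10 genes, among 15338 tested genes with a symbol. MZB1 was closest (r = 0.865, Spearman's rho = 0.796). ANKRD1 (0.790), STS, a steroid sulfatase (0.776), SIGLEC15 (0.738), PEX10 (0.732), POU2AF1 (0.723) and C1QTNF6 (0.712) followed. VPREB1, a surrogate light chain part of precursor B cells (0.708), TNFAIP8L2 (0.700) and IRF4 (0.692) completed the 10. The median r of all these genes was 0.03. ANKRD1, STS and SIGLEC15 were scarce, at class means of at most 0.598 CPM. VPREB1 was at 1.94 ± 1.55, 0.517 ± 0.274 and 1.19 ± 0.564 CPM in High-fertile, Sub-fertile and Infertile heifers. The r over the 15 libraries includes the class differences on which the antibody genes were chosen. With class means subtracted, r was 0.464 for IRF4, 0.378 for VPREB1 and 0.218 for POU2AF1. Then 1 of the 10 (MZB1, r = 0.768) was still among the 10 closest. The others were then CELF2 (0.810), SERPINF1 (0.796), SIRPB1-2 (0.782), MOV10L1 (0.779), GABRG3 (0.778), ADAM12 (0.773), EPHA7 (0.769), KCP (0.769) and TTC24 (0.768).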

How the data were processed

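Per the labels' protocols, polyadenylated RNA of the 15 biopsies, extracted with an RNeasy kit, went into TruSeq libraries that keep strand. The deposited table gives a whole-number read count per gene and heifer and an FPKM value made by the authors. FastQC, Subread, featureCounts, edgeR and UMD3.1 are named in the submitters' processing notes. The sources used here do not give versions, the strand setting or the rule for reads with several origins. Of 32671 entries 4555 were at 0 throughout. Symbols are those of the table, 7 of the 10 genes matched an entry of the RefSeq annotation of ARS-UCD2.0, used for names alone, and no coordinates are given.

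The deposited counts entered edgeR 4.0.16 under R 4.3.3. filterByExpr by class kept 19962 genes, and TMM factors scaled the libraries. One robust quasi-likelihood model held a mean per class over 15 libraries (12 residual degrees of freedom). P values were two-sided and Benjamini-Hochberg adjusted over all genes tested, with a threshold of 0.05. The SE of a log2 fold change was its size divided by the square root of its F value. Log2 CPM used a prior count of 2. FPKM was used only to compare levels between genes. A count of 0 allows up to 3 counts, which covers counting error only. The library sets came from average-linkage clustering of the log2 CPM of 372 tested pseudogene and ribosomal RNA entries, with the tree cut into 3 groups by setting. No label names them as batches. The alternatives were other scalings and filters, DESeq2 1.42.0, limma-voom (limma 3.58.1), the edgeR likelihood ratio and non-robust tests, 2 classes alone, the sets, and each library left out.

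The 10 genes and the 13 gene lists were chosen with earlier results of these data known. Beside the 10 genes, those named are the 2 with the smallest p for Sub-fertile against High-fertile in each of the 5 lists of antibody biology, a fixed set of B and plasma cell and transport genes, and the 10 most like the antibody genes. FCAMR, RAG1, IL21, MARCO, SLC4A1, the epithelial examples and the 4 other immunoglobulin entries are named for their list or their counts. A few genes that this rule names are not reported here.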

Additional observations from a re-analysis of the deposited data

Results flagged for a closer look

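Of 30 sets of 5 libraries, 10 genes in 3 classes, 2 held a library set apart from the other 4 by more than 0.71 of the range of the class, where chance gives about 1 in 20. LOC100301305 was at 6.23 CPM in Infertile replicate 3, and the next Infertile heifer was at 1.71 CPM. LOC100300806 was at 1.67 CPM in Sub-fertile replicate 1, and the next Sub-fertile heifer was at 1.27 CPM.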

How the results depend on the processing

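No paired analysis was possible because the labels give no pairing. The replicate numbers used here only tell the heifers of a class apart, and the same number in different classes marks no pair. The log2 fold changes of the 10 genes kept their sign in all 280 values (10 genes under 28 alternatives) of each comparison. The median for Sub-fertile against High-fertile lay between -4.52 and -3.32 under 13 alternatives and between -3.94 and -3.48 with 1 library left out. For Infertile against High-fertile it lay between -2.01 and -0.95, and between -1.47 and -0.73 with 1 library left out. For Infertile against Sub-fertile it lay between 2.16 and 2.73, and between 1.94 and 2.83 with 1 library left out. The number of genes past an adjusted p of 0.05 was 0 in each comparison by the edgeR quasi-likelihood test (2738, 2201 and 525 at an unadjusted p under 0.05). DESeq2 called 19, 33 and 11 genes for Sub-fertile against High-fertile, Infertile against High-fertile and Infertile against Sub-fertile, of which 8, 1 and 4 were among the 10. The edgeR likelihood ratio test called 13, 8 and 8, of which 8, 0 and 3 were among the 10. Limma-voom called 0, 1 and 1, none of them among the 10. With 1 library left out, 0 to 3 genes were called for Sub-fertile against High-fertile and 0 for the others. LOC100300806, IGLL1-2 and LOC100847119 were the 3 called without High-fertile replicate 1, without Infertile replicate 5 and, in an alternative chosen after seeing the data, without the 2-library set. Without Infertile replicate 1 LOC100847119 alone was called, and without High-fertile replicate 3 a gene outside the 10. The cause was not tested. Genes with no overlap between Sub-fertile and High-fertile heifers numbered 5 of 10 (2.81% of all genes), 9 without the 2-library set (3.6%) and 10 within the 8-library set (11.3%). The share of counts did not depend on the filter. By Spearman's rho 7 of the 10 most alike genes were the same. At a few counts per library LOC100301305 and LOC101906766 are limited by depth in Sub-fertile heifers.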
